A study of Mus musculus with 4 samples.

Results

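Cytochrome P450 genes were followed through 23 clusters of nuclei from the kidney cortex of 4 mice. Their members were the rows of the deposited table whose symbol was Cyp followed by a family number, a subfamily letter and a gene number, without Cyp24a1 and Cyp27b1, the vitamin D hydroxylases. The rule matched 62 of 19609 gene rows, and 34 of the 62 reached a level of 0.5 in at least 1 of the 92 columns. A level is the mean, over the nuclei of 1 cluster and 1 mouse, of counts scaled to 10000 per nucleus. The 28 others stayed below 0.5 everywhere. Just inside that limit were Cyp2u1 at 0.518, Cyp46a1 at 0.541 and Cyp2f2 at 0.554, and just outside it were Cyp4f15 at 0.443 and Cyp2r1 at 0.310, each value being the gene's highest column.

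Single-nucleus RNA sequencing was run on 1 male mouse of mixed strain per group. The control mouse and the control mouse given aristolochic acid I (AAI), a plant nephrotoxin, carried TRE-hKLF6, a human KLF6 transgene that is silent without a tetracycline transactivator. The hKLF6OE mouse and the hKLF6OE mouse given AAI carried CAG-rtTA as well, a transactivator under a ubiquitous promoter, so that induction was not limited to the tubule. All 4 mice were on a doxycycline diet by the study's account, and the AAI mice received a single dose a day before collection. With 1 mouse per group no difference has a replicate check and no p-value is given, and genotype cannot be told apart from the individual mouse. The spread quoted below is between clusters of 1 mouse, which are not replicates.

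P450 enzymes are haem proteins of the endoplasmic reticulum or the mitochondrion that insert an oxygen atom into lipids, sterols, retinoids and foreign compounds, with electrons passed on by Por or by ferredoxin. In the kidney the proximal tubule is their main site. The Cyp2j enzymes epoxidise arachidonic acid, the Cyp4a enzymes hydroxylate the end of fatty acid chains, Cyp7b1 and Cyp27a1 hydroxylate sterols, and Cyp2e1, Cyp2a, Cyp2d and Cyp4b1 oxidise small foreign compounds. Cyp1a enzymes demethylate AAI, and Nqo1 reduces it.

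Several members are near-identical copies, which limits how surely reads can be assigned to one of them. Cyp2a4, a steroid hydroxylase, and Cyp2a5, a coumarin hydroxylase, are shown because their levels moved differently with AAI below. Their coding sequences have 1482 bases each, differ at 23 of them and are 98.4% identical. The following stretch of exon 4 of 9 (GENCODE transcripts, GRCm38) holds 4 of the differences, in capitals.
Cyp2a4 coding bases 538 to 627, chr7:26308972-26309061, plus strand: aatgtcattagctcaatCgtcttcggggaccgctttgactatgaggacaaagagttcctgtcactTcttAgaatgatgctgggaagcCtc
Cyp2a5 coding bases 538 to 627, chr7:26837135-26837224, plus strand: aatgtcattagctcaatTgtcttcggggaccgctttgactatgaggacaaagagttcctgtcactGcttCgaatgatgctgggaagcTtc

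The windows around their start sites were also nearly the same. Set side by side with a shift of 1 base, the 2 windows differed at 5 of 299 bases. Cyp2j13 and Cyp2j5, epoxygenases whose levels moved differently with AAI, are shown as a second pair. Each window runs from 250 bases before to 50 bases after the start (RefSeq, GRCm38.p6), and 23 of the 34 members had such an entry. Capitals mark every match, on either strand, to TATAAA, to the nuclear receptor half-site AGGTCA, to GTTAAT or to GCGTG, the core of the Ahr element.
Cyp2a4 promoter, chr7:26306942-26307241, plus strand: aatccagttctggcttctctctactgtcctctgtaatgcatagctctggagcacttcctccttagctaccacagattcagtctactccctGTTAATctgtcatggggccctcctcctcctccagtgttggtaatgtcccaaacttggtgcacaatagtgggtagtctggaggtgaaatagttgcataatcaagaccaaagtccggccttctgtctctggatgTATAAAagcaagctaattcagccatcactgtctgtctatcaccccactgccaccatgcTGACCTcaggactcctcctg
Cyp2a5 promoter, chr7:26835089-26835388, plus strand: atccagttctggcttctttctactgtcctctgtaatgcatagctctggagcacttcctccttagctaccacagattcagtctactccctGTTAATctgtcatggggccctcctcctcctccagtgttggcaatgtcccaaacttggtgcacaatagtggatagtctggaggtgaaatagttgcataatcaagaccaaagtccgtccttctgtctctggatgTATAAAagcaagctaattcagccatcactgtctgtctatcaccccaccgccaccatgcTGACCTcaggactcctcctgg
Cyp2j13 promoter, chr4:96077491-96077790, minus strand: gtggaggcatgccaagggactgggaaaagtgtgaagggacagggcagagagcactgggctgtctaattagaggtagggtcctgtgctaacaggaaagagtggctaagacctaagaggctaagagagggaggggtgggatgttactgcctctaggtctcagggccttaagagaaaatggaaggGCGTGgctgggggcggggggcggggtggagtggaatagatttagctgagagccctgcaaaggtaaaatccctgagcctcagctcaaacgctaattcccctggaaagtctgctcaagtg
Cyp2j5 promoter, chr4:96664070-96664369, minus strand: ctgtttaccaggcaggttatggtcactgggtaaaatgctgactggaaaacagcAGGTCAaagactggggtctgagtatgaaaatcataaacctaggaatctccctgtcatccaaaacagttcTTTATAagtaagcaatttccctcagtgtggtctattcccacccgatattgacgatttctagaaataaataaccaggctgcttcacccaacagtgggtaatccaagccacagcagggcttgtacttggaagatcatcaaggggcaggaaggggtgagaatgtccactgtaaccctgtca

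The Cyp2a windows each held 1 match to every motif but the Ahr core, with TATAAA shortly before the start in both. Cyp2j5 held TATAAA and the receptor half-site once each, and Cyp2j13 held only 1 Ahr core. Of 27025 promoters of the same length, 14.2% held TATAAA, 16% the receptor half-site, 7.2% the letters GTTAAT and 32.5% the Ahr core, and no matches of different motifs overlapped in the 4 windows. A match describes the letters only. Among the coding transcripts of the 34 members, 13 shared no word of 50 bases with another gene and 9 shared at least 10% of their words. The most shared was Cyp4a12a, with 48.9% of its words also in another gene, chiefly Cyp4a12b. Cyp2a4 and Cyp2a5 shared 36.1% and 29.3% of theirs, chiefly with each other. Cyp4a10 and Cyp4a31 shared 29.8% and 20.5%, chiefly with Cyp4a32, and Cyp2d9 and Cyp2d12 shared 21.9% and 14.7%, chiefly with each other. Values of these genes are uncertain to the extent that reads were split between copies.

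The clusters were checked against their defining genes. Of the markers examined, the podocyte, ascending limb, DCT, IC-A, IC-B, macrophage and injured clusters had theirs as the highest of all clusters. Exceptions were Scnn1g, which was higher in CNT than in CD-PC, Tshz2, which was higher in MC than in LH-DL, and the endothelial genes Flt1, Emcn and Meis2, which marked EC-2 and not EC-1. Between 15.1% and 31.3% of genes were listed at 0 in the columns of the 5 normal proximal tubule (PT) clusters. The share was 40.8% to 62.6% in the injured clusters of mice without AAI and 38.3% to 63.4% in LH-AL-3, LH-DL and Macrophage. The number of nuclei behind each column is not in the table. Cyp7b1 is among the genes that define PT-S3-2, and all clusters were drawn from the same expression values, so differences between clusters are descriptions.

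In normal PT a few members made up most of the P450 transcripts. Cyp4b1, Cyp2j5, Cyp7b1 and Cyp2j13 together held 67.1% of the summed level of the 34 genes in the control mouse, 71.1% in the control mouse with AAI, 70.8% in the hKLF6OE mouse and 76.2% in the hKLF6OE mouse with AAI. The 7 Cyp2j members alone held 38.2%, 39.2%, 38.1% and 41.0% in that order. The summed level was 41.7, 54.6, 43.0 and 48.9 in the same order, so it was higher with AAI in both genotypes. In the hKLF6OE genotype the sum rose by 5.84 and Cyp7b1 and Cyp2j13 together by 9.79, and in PT-S1-S2-1 the sum was 31.1 without and 26.4 with AAI.

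The plot of levels by cluster shows these genes as the brightest rows. Cyp7b1 and Cyp2j13 were uneven between PT clusters and Cyp2j5 was even.

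**Figure D1:**
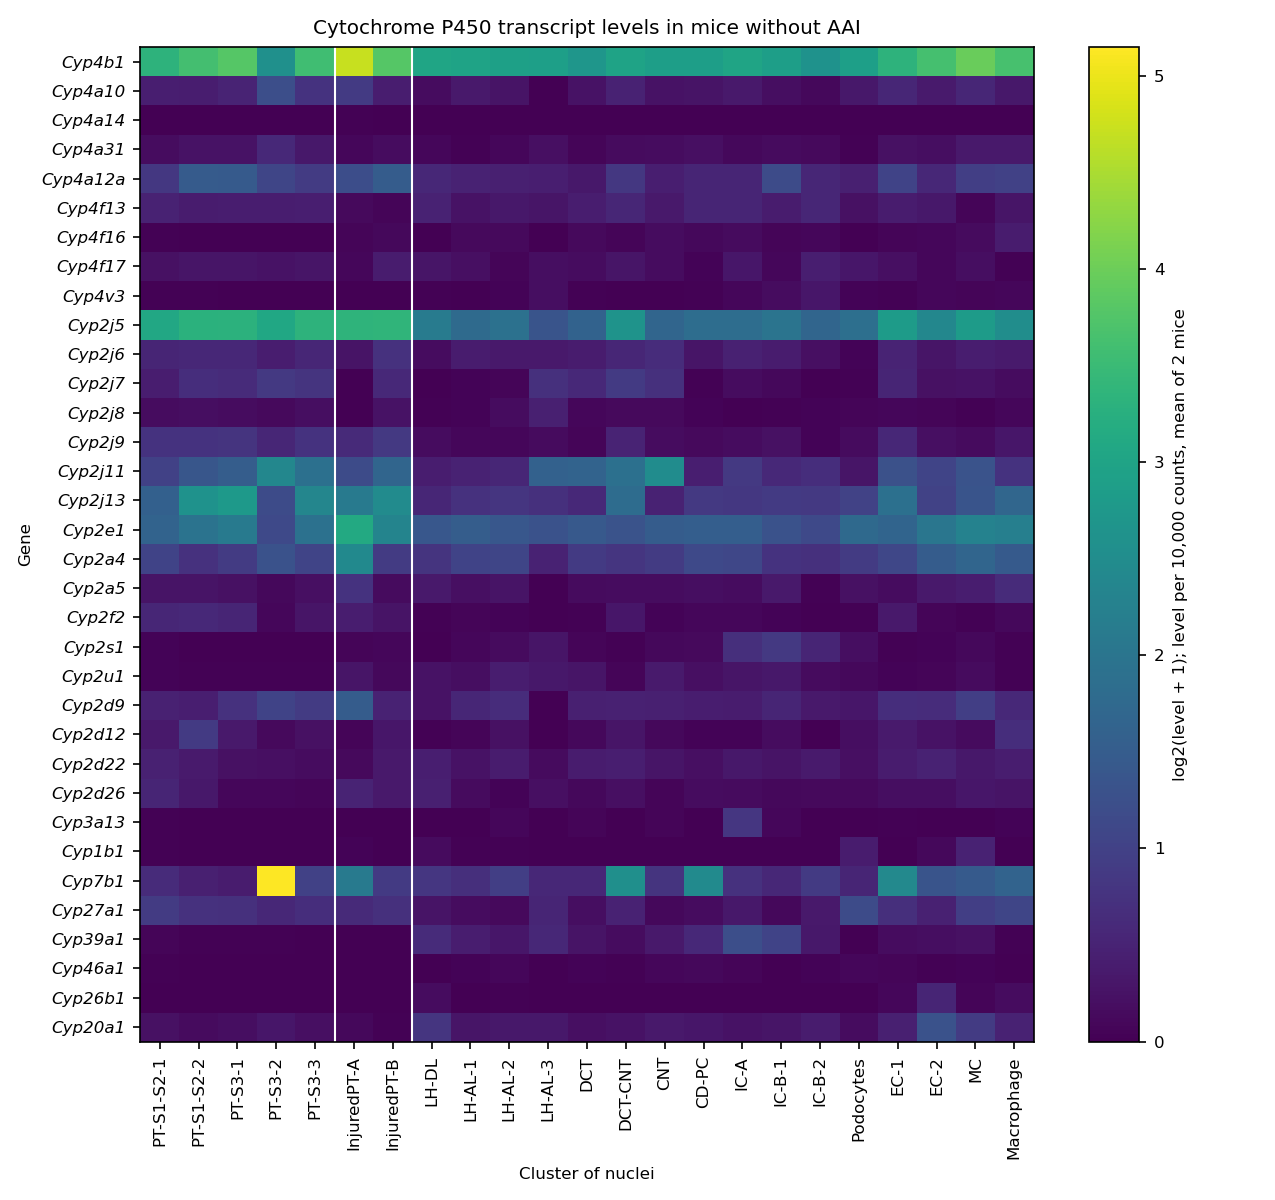
Level of each of the 34 reported P450 genes (rows) in each of the 23 clusters (columns) as log2(level + 1), averaged over the control and hKLF6OE mice, both without AAI. White lines separate the 5 normal PT clusters, the 2 injured clusters and the 16 clusters outside PT; Cyp7b1 in PT-S3-2, at 32.0 and 37.1, is the brightest cell.

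Cyp2j5, a renal arachidonic acid epoxygenase, had the most even level. Its mean over the 5 normal PT clusters was 8.51 in the control mouse, 8.66 with AAI, 8.20 in the hKLF6OE mouse and 7.63 in the hKLF6OE mouse with AAI, and single clusters lay between 6.57 and 9.88. No mouse stood apart. Cyp4b1, which activates furan toxins, had means of 9.48, 10.6, 10.2 and 7.73 in the same order, with single clusters from 3.05 to 16.7. The hKLF6OE mouse with AAI was the lowest.

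Long genes gain counts from their introns in nuclei, so members were ranked per kb of gene span. In the control mouse the order was Cyp4b1 at 0.412 per kb, Cyp2e1 at 0.244, Cyp2j5 at 0.240, Cyp2a4 at 0.122, Cyp2d12 at 0.114 and Cyp2j13 at 0.0644. Cyp2e1 and Cyp2j5 differed by less than the clusters of 1 mouse did, and Cyp2j5 was above Cyp2e1 in the other mice. Cyp7b1, among the highest by level, spans 171 kb (chr3:18071950-18243338, minus strand) and came after these genes per kb, at 0.0396. Cyp4b1 ranked first in all 4 mice.

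The members lie in tight families on the genome (GENCODE, GRCm38). All Cyp2j members sit on the minus strand of chr4:96027534-96664154. The Cyp4a members and Cyp4b1 share chr4:115299046-115647723, Cyp2a4 and Cyp2a5 lie at chr7:26307169-26315088 and chr7:26835305-26843548, and the 4 Cyp2d members lie within chr15:82370527-82794294.

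**Figure D2:**
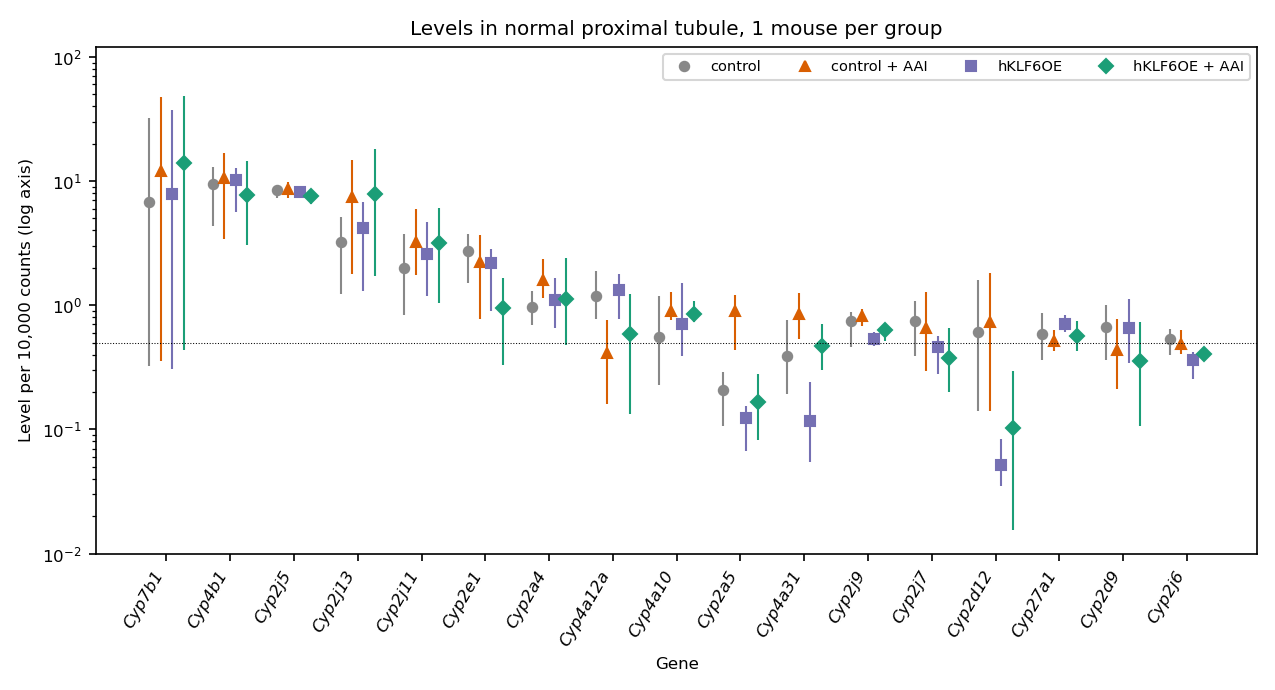
Level in normal PT (log axis) of the 17 members that reached 0.5 in at least 1 mouse; each symbol is the mean of the 5 normal PT clusters of 1 mouse and each line runs from its lowest to its highest cluster. The dotted line is 0.5; Cyp2d12 and Cyp4a31 lie lower in the hKLF6OE mice, and Cyp2a5 stands out in the control mouse with AAI.

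The S3 segment of the tubule carried more of some members than S1-S2. Of 13 members that reached 0.5 in both mice without AAI, 4 were higher in the mean of the 3 PT-S3 clusters by at least 0.2 in log2(level + 1), namely Cyp7b1, Cyp2j11, Cyp4a10 and Cyp2d9, and 0 were lower. Of 3913 genes tested the same way, 12.9% were higher and 14.7% lower. The median member differed by 0.09 in either mouse, against 0.00 and -0.02 over all genes. Cyp7b1 in PT-S3 was 26.1 times its level in PT-S1-S2 in the control mouse and 25.8 times in the hKLF6OE mouse, a difference of 3.08 and 3.21 in log2(level + 1). Nearly all of it came from PT-S3-2, where Cyp7b1 was 32.0 and 37.1, while PT-S3-1 had 0.322 and 0.307. Without PT-S3-2 the smaller difference of the 2 mice was 0.11 for Cyp7b1 and 0.19 for Cyp4a10, which were then no longer counted. The number of higher members stayed at 4, since others were added.

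The other genes differed by smaller amounts. Cyp2j11 was 2.60 against 1.13 and 3.29 against 1.49 in the control and hKLF6OE mouse. For Cyp4a10, a fatty acid hydroxylase, the values were 0.743 against 0.260 and 0.910 against 0.410, and for Cyp2d9 0.867 against 0.366 and 0.844 against 0.372. These 3 had their higher level in S3 in both mice.

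Cyp2d26 and Cyp2d12 leaned the other way. Cyp2d26 was 0.328 in PT-S1-S2 and 0.0454 in PT-S3 of the control mouse and 0.389 and 0.0720 in the hKLF6OE mouse, below the limit of 0.5 on both sides. Cyp2d12 was 1.05 in PT-S1-S2 and 0.319 in PT-S3 of the control mouse, a ratio of 3.28. Within 1 family of neighbouring genes, Cyp2d9 was thus higher in S3 and Cyp2d26 in S1-S2. With the control mouse alone 5 of 15 members were higher in S3, against 16.1% of genes, and 2 were lower, Cyp27a1 and Cyp2d12, against 16.8%. With the hKLF6OE mouse alone 5 of 14 were higher, against 14.1%, and 1 was lower, Cyp2f2, against 18.7%.

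AAI was compared with no AAI within each genotype. Of 12 members that reached 0.5 in both genotypes, 3 were higher with AAI in both, Cyp7b1, Cyp2j13 and Cyp2j11, and 3 were lower in both, Cyp4a12a, Cyp2e1 and Cyp2d9. Over 3892 genes, 7.66% were higher and 5.83% lower. The median member differed by 0.10 in the control and -0.04 in the hKLF6OE genotype, against 0.01 and 0.05 over all genes.

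Among the members tested, Cyp2j13 had the largest rise in log2(level + 1), close to that of Cyp7b1 in the hKLF6OE genotype. Cyp7b1 rose more by level. Cyp2j13 had normal PT means of 3.22, 7.42, 4.18 and 7.82 in the order control, control with AAI, hKLF6OE and hKLF6OE with AAI. Both AAI mice lay above both mice without AAI, by 1.00 and 0.77 in log2(level + 1). PT-S3-1 showed the steepest change, from 5.11 to 14.7 and from 6.74 to 18.1, a ratio of 2.88 and 2.69. PT-S3-3 had 3.64 and 5.36 in the control genotype and 4.59 and 4.90 in the hKLF6OE genotype. All 5 clusters were higher with AAI in each genotype, by the least in PT-S3-3 of the hKLF6OE mice, at a ratio of 1.07.

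Cyp7b1, the oxysterol hydroxylase, had means of 6.78, 12.1, 7.93 and 14.1 in the same order of mice. Most of the difference lay in PT-S3-2 and PT-S3-3. PT-S3-2, where the level was highest, had 32.0 and 47.4 in the control genotype and 37.1 and 48.3 in the hKLF6OE genotype. PT-S3-3 had 0.746 and 11.5, then 1.22 and 20.1, a ratio of 15.5 and 16.5. The other 3 PT clusters stayed between 0.307 and 0.920 in all mice. Within that range the PT-S1-S2 mean rose with AAI, from 0.422 to 0.685 and from 0.499 to 0.755. Counted singly, 3 of 5 PT clusters were higher by at least 0.2 in the control and 4 of 5 in the hKLF6OE genotype. Nuclei were assigned to PT-S3-3 by the same expression values, and whether its membership differed with AAI was not tested.

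Cyp2j11, by 0.49 and 0.22 in log2(level + 1), rose from 2.01 to 3.22 and from 2.57 to 3.14 in the mean, with 5 of 5 clusters higher in the control and 4 of 5 in the hKLF6OE genotype. Cyp2j5 and Cyp2j9, of the same gene cluster, differed by 0.09 or less in log2(level + 1) in either genotype. Cyp2j13 and Cyp2j11 therefore moved apart from their neighbours on chromosome 4. Cyp2j7, Cyp2j6 and Cyp2j8 did not reach 0.5 in both genotypes, at 0.745, 0.531 and 0.156 in the control mouse and 0.660, 0.486 and 0.0991 in the control mouse with AAI.

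Cyp4a12a, which makes hydroxylated arachidonic acid, fell in every PT cluster. Its mean was 1.20 in the control mouse, 0.414 in the control mouse with AAI, 1.32 in the hKLF6OE mouse and 0.589 in the hKLF6OE mouse with AAI, so both AAI mice were below both others. Over all clusters but the injured ones it was lower with AAI in 20 of 21 in the control and in 21 of 21 in the hKLF6OE genotype. Cyp2d9 fell from 0.667 to 0.435 and from 0.656 to 0.358. Cyp2f2, which activates naphthalene in the lung, was at 0.353, 0.195, 0.336 and 0.126, below 0.5 in every normal PT mean.

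Other Cyp4a members had higher means with AAI. Cyp4a10 was 0.550, 0.902, 0.710 and 0.854 in the order control, control with AAI, hKLF6OE and hKLF6OE with AAI, which passed 0.2 in log2(level + 1) in the control genotype at 0.30 and not in the hKLF6OE genotype at 0.12. In PT-S3-2 it was lower with AAI in both genotypes, at 1.19 and 0.757 and at 1.51 and 1.08. Without AAI it was higher in S3 than in S1-S2, with ratios of 2.86 and 2.22, and with AAI these ratios were 1.11 and 1.01. Cyp4a31 was 0.389, 0.855, 0.117 and 0.468, higher with AAI in 5 of 5 PT clusters of each genotype. Cyp4a14 was 0.00463, 0.265, 0.00518 and 0.0521, so it was near 0 in both mice without AAI and highest in the control mouse with AAI. It never reached 0.5 in PT and was not among the genes tested. The 4 Cyp4a members thus split, with Cyp4a12a at a lower and the others at a higher mean with AAI.

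Cyp2a5 had different values with AAI in the 2 genotypes. It was 0.209 in the control mouse and 0.894 with AAI, a ratio of 4.28, and 0.124 and 0.167 in the hKLF6OE mice, a ratio of 1.35. The control mouse with AAI stood alone above the other 3, and its lowest PT cluster, at 0.438, exceeded the highest PT cluster of any other mouse, at 0.289. Cyp2a4 was 0.970, 1.59, 1.10 and 1.12. The ratio of Cyp2a5 to Cyp2a4 was 0.215, 0.562, 0.113 and 0.149 in the 4 mice, and the assignment of reads between the copies was not tested.

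The higher level of Cyp2a5 with AAI in the control genotype was also seen in columns outside PT. Of the 20 clusters outside the injured ones with a value above 0 in the control mouse, 20 were higher with AAI, from a ratio of 1.28 in Macrophage to 13.9 in IC-B-2, with a median of 3.96. In the hKLF6OE genotype 12 of 16 were higher, with a median of 1.44. CNT had 0.188 and 1.21 in the control genotype and 0.0725 and 0.0889 in the hKLF6OE genotype.

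Cyp2e1, which oxidises ethanol and solvents, fell more in the hKLF6OE genotype. It was 2.74 and 2.23 in the control genotype and 2.18 and 0.946 in the hKLF6OE genotype, a fall by 0.21 and by 0.71 in log2(level + 1). In the control genotype 4 of 5 PT clusters were lower, and PT-S3-3 changed most, from 2.98 to 1.26. In the hKLF6OE genotype 5 of 5 were lower, and PT-S3-3 went from 2.63 to 0.330. The hKLF6OE mouse with AAI was below the other 3 mice.

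Each genotype alone gave other counts. In the control genotype 7 of 17 members were higher, against 11.7% of all genes, with Cyp4a10, Cyp4a31, Cyp2a4 and Cyp2a5 added to the 3 above. In the hKLF6OE genotype 3 of 12 were higher and 4 lower, against 19.5% and 15.4%, with Cyp4b1 added to the lower ones. Whether the genotypes differ in their response cannot be tested with 1 mouse each.

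**Figure D3:**
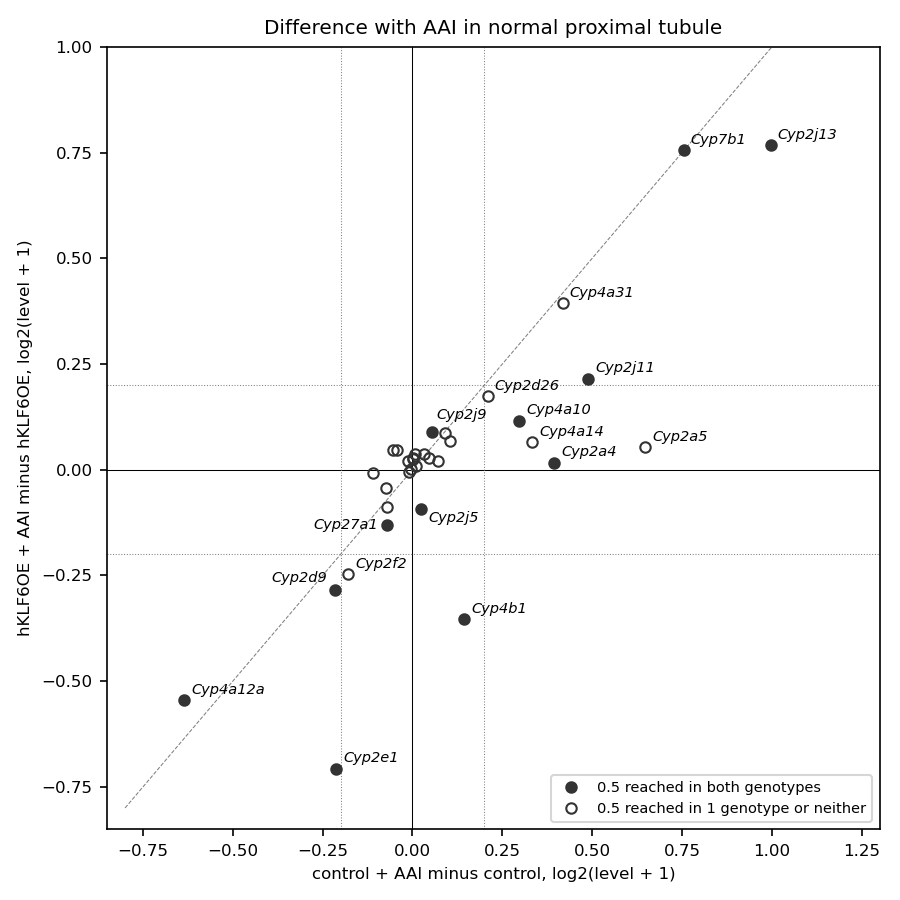
Difference with AAI in normal PT, in log2(level + 1), in the control genotype (horizontal axis) and the hKLF6OE genotype (vertical axis), 1 point per member. Filled points reached 0.5 in both genotypes, dotted lines mark 0.2 and -0.2, and the dashed line marks equal differences; Cyp2a5 and Cyp4a14 lie to the right of it and Cyp2e1 and Cyp4b1 below it.

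The hKLF6OE mice were also set against the control mice directly, and these comparisons share their mice with those above. Without AAI, 2 of 15 members were higher in the hKLF6OE mouse, Cyp2j13 and Cyp2j11, and 3 were lower, Cyp2j7, Cyp2e1 and Cyp2d12. Over all genes 7.84% were higher and 9.33% lower. With AAI, 0 of 15 members were higher and 7 were lower, against 6.32% and 7.74% of all genes. The 7 were Cyp2j7, Cyp4a31, Cyp4b1, Cyp2a4, Cyp2a5, Cyp2e1 and Cyp2d12. The median member differed by -0.16 with AAI, against 0.01 over all genes, and by 0.08 without AAI, against -0.03.

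Cyp2d12 differed most between the genotypes by ratio, while with AAI Cyp2e1 and Cyp2a5 differed more in log2(level + 1). Its mean was 0.610 in the control mouse, 0.729 in the control mouse with AAI, 0.0515 in the hKLF6OE mouse and 0.102 in the hKLF6OE mouse with AAI, a ratio of 11.8 without and 7.16 with AAI. In PT-S1-S2-2, where it was highest, the values were 1.58, 1.83, 0.0831 and 0.295. The 2 genotypes did not overlap in any of the 5 clusters. Its neighbour and near copy Cyp2d9 was 0.667 and 0.656 in the mice without AAI, so the ratio of Cyp2d12 to Cyp2d9 went from 0.914 in the control mouse to 0.0785 in the hKLF6OE mouse. The mice were of mixed strain, and an inherited difference between individual mice cannot be told apart from an effect of the transgene.

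Cyp4a31 showed the same direction in every PT cluster, with a control level 3.32 times that of the hKLF6OE mouse without AAI and 1.83 times with AAI. Cyp2a5 was 1.68 and 5.35 times as high in the control mice, and Cyp4a14 5.09 times with AAI. For Cyp2j7 these ratios were 1.62 and 1.77, with 5 of 5 clusters lower in the hKLF6OE mice both times, and for Cyp2e1 1.26 and 2.36. Kap, an abundant PT transcript, was 56.4, 47.8, 84.4 and 35.5 in the 4 mice and so did not follow the genotype.

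The 2 injured PT clusters were compared with normal PT of the same mouse in the AAI mice, where 22.2% to 29.7% of genes were listed at 0 in these columns. InjuredPT-A is marked by Polr2a and Klf6 and InjuredPT-B by Cxcl1, Havcr1 and Krt20, although Cxcl1 was higher in InjuredPT-A than in InjuredPT-B of the control mouse with AAI, at 4.80 and 3.75. Both clusters had less P450 transcript in sum than the mean of the 5 normal PT clusters. InjuredPT-A had 62.0% of the normal PT sum in the control and 70.7% in the hKLF6OE mouse, and InjuredPT-B 72.5% and 53.4%. Cyp7b1, uneven between normal clusters, made up 12.1 and 14.1 of the normal PT sums of 54.6 and 48.9. The sums were 33.8 and 34.6 in InjuredPT-A and 39.6 and 26.1 in InjuredPT-B. The normal cluster PT-S1-S2-1 had 40.6 and 26.4, so not every normal cluster lay above the injured ones.

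In InjuredPT-A, 5 of 12 members were lower in both mice, Cyp7b1, Cyp2j13, Cyp2j11, Cyp2j9 and Cyp2j5, and 5 were higher, Cyp2a4, Cyp4a10, Cyp2a5, Cyp4a31 and Cyp2e1. Of 5008 genes, 27.0% were lower and 43.3% higher, or 70.2% in either direction, so most genes differed in this cluster. The median member differed by 0.04 and 0.17, against 0.19 and 0.15 over all genes. With each mouse centred on the latter, Cyp4a31 and Cyp2e1 were no longer counted. In the control mouse alone 6 of 15 members were higher and 7 lower, against 51.4% and 27.8%, and in the hKLF6OE mouse alone 7 of 14 and 5, against 47.5% and 30.6%.

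Cyp7b1 was 0.763 in InjuredPT-A against 12.1 in normal PT of the control mouse with AAI. In the hKLF6OE mouse with AAI it was 2.18 against 14.1. The highest normal PT cluster had 47.4 and 48.3 in these mice, while the PT-S1-S2 mean was 0.685 and 0.755, below InjuredPT-A. Cyp7b1 in InjuredPT-A was thus below the normal PT mean but not below every normal cluster. Cyp2j13 was 1.35 in InjuredPT-A against 7.42 in normal PT and 1.83 against 7.82. The lower members other than Cyp7b1 were all of the Cyp2j family. Cyp2j5, steady elsewhere, was 3.99 against 8.66 and 3.86 against 7.63. Cyp2j11 was lower by 1.47 and 1.33 in log2(level + 1), and Cyp2j9 by 0.66 and 0.42.

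Cyp2a4 was 3.65 against 1.59 and 2.44 against 1.12, the largest rise by the smaller of the 2 differences. Its highest single normal PT cluster was at 2.34 and 2.38 in these mice. Cyp4a10 was 1.68 against 0.902 and 1.94 against 0.854. Cyp2a5 was 2.35 against 0.894 in the control mouse and 0.534 against 0.167 in the hKLF6OE mouse. Cyp2e1 and Cyp4a31 were higher by 0.23 and 0.79 and by 0.32 and 0.45 in log2(level + 1). Cyp4b1 was 10.8 against 10.6 in the control and 13.3 against 7.73 in the hKLF6OE mouse. In the mice without AAI it was 28.1 and 22.3 in InjuredPT-A, where Kap was 225 and 327. Cyp2a4 and Cyp2e1 had their highest columns in InjuredPT-A of the control mouse without AAI, at 4.91 and 8.48. Normal PT of that mouse had 0.970 and 2.74. Higher levels of these 2 genes in InjuredPT-A were therefore not limited to mice with AAI, although 62.6% of genes were at 0 in that column.

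A few of the PT transcripts that are found outside PT as well were also higher in InjuredPT-A, but most were lower. Kap was 110 in InjuredPT-A against 47.8 in normal PT and 101 against 35.5, a ratio of 2.31 and 2.85, and Slc22a6, an organic anion transporter, had ratios of 2.03 and 4.52. Of 10 PT transcripts examined, 8 and 7 were lower in InjuredPT-A than in normal PT, down to a ratio of 0.127 and 0.188 for Cubn. Over the 12 members, the level in 5 distal clusters relative to PT in mice without AAI was set against the difference in InjuredPT-A. The Pearson coefficient, with this ratio as log2, was 0.53 in either mouse, and the Spearman coefficient 0.63 and 0.60. No such coefficient was taken over all genes, so these values describe the members only. The points are genes, not replicates. They share libraries and the normal PT reference, and the part of carried-over RNA in these differences was not tested. Over 11 members in InjuredPT-B the Pearson coefficients were 0.21 and 0.12 and the Spearman coefficients 0.15 and -0.10.

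In InjuredPT-B, 4 of 11 members were lower in both mice, Cyp7b1, Cyp2j11, Cyp2j5 and Cyp2j9, and 1 was higher, Cyp4f17. Of 4148 genes, 13.1% were lower and 23.4% higher, or 36.5% in either direction. The median member differed by 0.10 and -0.31, against 0.11 and 0.10. Cyp7b1 was 0.810 against 12.1 and 0.980 against 14.1, and Cyp2j11 was 0.908 against 3.22 and 0.600 against 3.14. For Cyp7b1 the PT-S1-S2 mean of these mice was 0.685 and 0.755, below InjuredPT-B.

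Cyp2j13 differed between the injured clusters. In InjuredPT-B it was 7.29 against 7.42 in the control and 6.06 against 7.82 in the hKLF6OE mouse, whereas in InjuredPT-A it was 1.35 and 1.83. Single normal PT clusters ran from 1.77 to 14.7 in the control and from 1.73 to 18.1 in the hKLF6OE mouse. InjuredPT-A was thus near the lowest normal cluster, and whether the injured clusters differ in segment was not tested. Cyp4f17, of a subfamily that hydroxylates leukotrienes and fatty acids, was 0.510 against 0.185 and 0.505 against 0.226. In InjuredPT-A it was 0.494 and 0.656, higher by a like amount, but was not tested there because the former is under 0.5. Its value in InjuredPT-B of the mice without AAI was 0.545 and 0.0937. In the hKLF6OE mouse alone 8 of 13 members were lower, against 17.3% of genes, with Cyp4a12a, Cyp2a4, Cyp2e1 and Cyp2j13 added, and 1 was higher, against 35.9%. In the control mouse alone 4 of 15 were higher, against 34.3%, with Cyp27a1, Cyp4a10 and Cyp2a5 added, and 6 were lower, against 15.4%.

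**Figure D4:**
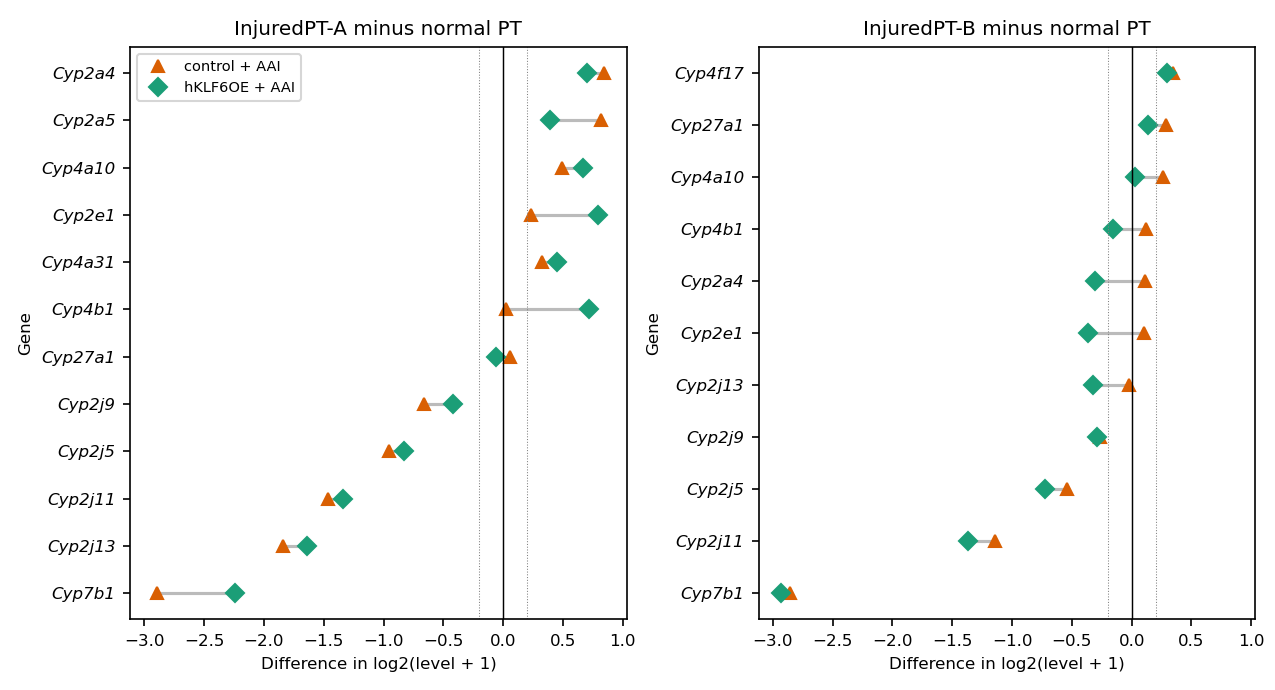
Difference in log2(level + 1) between InjuredPT-A (left) or InjuredPT-B (right) and normal PT of the same mouse, for the 12 and 11 members that reached 0.5 in both mice with AAI. Triangles are the control and diamonds the hKLF6OE mouse, and dotted lines mark 0.2 and -0.2. Cyp7b1 is lowest in both panels and Cyp2j13 is lower on the left than on the right in both mice. The PT-S1-S2 mean of Cyp7b1 lies below both injured clusters in both mice.

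Outside PT, a member was called above carried-over RNA in a column when its level was at least 0.5 and its ratio to normal PT exceeded that of every one of the 10 PT transcripts. Kap set this limit in 58 of 64 columns, with ratios from 0.640 to 3.54, while the median ratio of the 10 ran from 0.0877 to 0.785. A cluster is named where the call held in at least 3 of the 4 mice. By this rule 9 members were called in a cluster outside PT, 1 of them, Cyp2a4, only in EC-1, where the median ratio of the 10 PT transcripts was 0.731 to 0.785. The rule was applied to the members only. No share over all genes can therefore be set beside this count, which is a description. A member near 0 in PT passes the ratio limit readily once it reaches 0.5.

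Intercalated cells, which secrete acid or base, carried 3 of them. Cyp39a1, an oxysterol hydroxylase, was 1.08, 1.12, 1.61 and 1.03 in IC-A and 1.24, 0.903, 0.892 and 0.781 in IC-B-1, in the order control, control with AAI, hKLF6OE and hKLF6OE with AAI. Its highest normal PT mean was 0.0310, so both clusters lay far above PT in every mouse. In CD-PC it was 0.748, 0.663, 0.255 and 0.598. Cyp3a13, a drug and steroid oxidase, was 1.05, 1.29, 0.482 and 2.85 in IC-A, against at most 0.390 in IC-B-1 and 0 in IC-B-2. Cyp2s1 was 0.843, 0.637, 0.774 and 1.21 in IC-B-1 and ranged from 0.168 to 0.681 in IC-A. In IC-B-2 Cyp2s1 was 0.523, 0.535, 0.366 and 0.389, so its IC-B-1 level was above both other intercalated clusters in each mouse.

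CNT and the mixed cluster DCT-CNT held 2 Cyp2j genes, which were not called in DCT. Cyp2j11 was 3.96, 4.28, 5.43 and 3.28 in CNT, above its normal PT mean in each mouse, and 2.07, 3.39, 3.42 and 2.61 in DCT-CNT. In CD-PC, the next segment, it was 0.213 to 0.405. Cyp2j7 was 0.578, 1.07, 0.688 and 0.977 in CNT and 0.889, 0.525, 0.790 and 0.405 in DCT-CNT. Cyp2j6 in CNT was 0.633, 0.303, 0.534 and 0.239 and was not called.

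Cyp7b1 was not called in 3 of 4 mice of any cluster. It was 4.93, 6.06, 4.15 and 5.61 in CD-PC, against 0.899, 1.00, 0.540 and 0.946 in CNT, so that CD-PC and CNT did not overlap. In DCT-CNT it was 3.22, 7.15, 6.63 and 6.54, a ratio to normal PT of 0.465 to 0.836, and the median ratio of the 10 PT transcripts there was 0.636 to 0.691. In EC-1 it was 4.42, 5.05, 4.36 and 8.21.

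Vascular and glomerular clusters held the remaining ones. Cyp20a1, an enzyme without a known substrate, was 1.33, 1.89, 1.59 and 1.33 in EC-2 and 1.11, 0.354, 0.615 and 0.892 in MC, against normal PT means of 0.135 to 0.211. Cyp1b1, which oxidises oestrogen and retinol, was 0.520, 0.836, 0.292 and 0.796 in MC. Cyp27a1, the mitochondrial sterol hydroxylase, was 1.70, 1.07, 0.824 and 0.685 in podocytes and between 0.511 and 0.707 in normal PT. Cyp2a4 was 1.15, 1.76, 1.15 and 0.911 in EC-1, a cluster without clear endothelial markers. Cyp26b1, which degrades retinoic acid, was 0.881, 0.213, 0.0117 and 1.06 in EC-2, so it was detected at over 0.5 in 2 mice, 1 of each genotype.

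**Figure D5:**
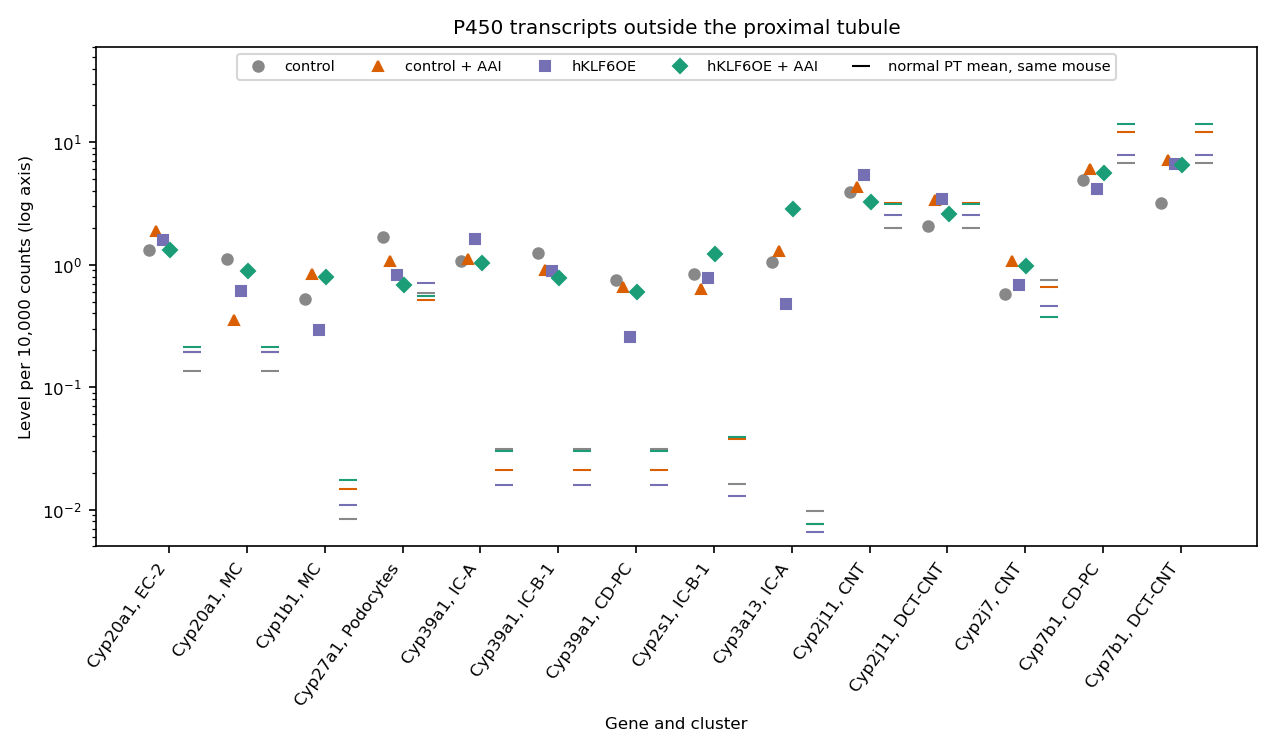
Level (log axis) of members in clusters outside PT, with 1 symbol per mouse and, as short bars in the same colours, the normal PT mean of each mouse. Cyp39a1, Cyp3a13, Cyp2s1, Cyp20a1 and Cyp1b1 lie above their PT bars in every mouse, and Cyp7b1 below them.

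The remaining members were low. Cyp4f13 had normal PT means of 0.344, 0.431, 0.347 and 0.431 and passed 0.5 in 14 columns in and outside the tubule. Cyp2d22 passed it in 3 columns, of LH-DL, MC and EC-2, and Cyp2j8 in 2, of LH-AL-3. Cyp2u1, Cyp4v3, Cyp46a1 and Cyp4f16 passed it in 1 column each, of LH-AL-3, Macrophage, LH-AL-3 and LH-DL, clusters with many genes at 0. Cyp46a1, the brain cholesterol hydroxylase, was at 0 in the other 3 mice of that cluster. All 10 Cyp2c genes stayed below 0.5 and summed to between 0.0854 and 0.129 in normal PT.

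Genes that work with or regulate P450 enzymes were counted in the same comparisons. With AAI, 7.66% of all genes were higher and 5.83% lower in both genotypes, the shares to set beside the counts that follow. With AAI, Por, the electron donor, rose from 3.41 to 4.51 and from 3.06 to 4.32, the only one called of 7 redox and haem genes tested. Of 12 regulators 4 rose and 1 fell. Ppara, the fatty acid receptor, rose most, from 5.10 to 10.7 and from 4.92 to 8.02. The median regulator differed by 0.12 and 0.08, against 0.01 and 0.05 over all genes. Of 7 Ppara targets other than P450 genes, 0 rose and 2 fell, Ehhadh most, from 8.47 to 4.75 and from 4.15 to 1.77. Nqo1 rose from 0.384 to 0.894 and from 0.411 to 0.994, 1 of 2 Ahr targets tested, while Cyp1a1 stayed below 0.5. Of 9 other phase I enzymes Ces1d rose, from 2.53 to 3.93 and from 1.54 to 3.01, and 2 fell, Ephx2 from 2.01 to 1.34 and from 2.03 to 1.05. Of 2 retinoid genes Rdh16 rose and Dhrs3 fell.

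In InjuredPT-A, where 27.0% of all genes were lower and 43.3% higher, 8 of 13 regulators were lower and 3 higher, with a median of -0.75 and -0.56 against 0.19 and 0.15 over all genes. Ghr, the growth hormone receptor, was 9.72 against 123 and 12.8 against 96.0, and Bcl6 was 6.13 against 1.41 and 3.42 against 0.958. Among the lower ones were also Ppara, Nr1h4, Hnf4g, Hnf4a and Arnt. Of 9 redox and haem genes 5 were higher, Cpox most by the smaller of its 2 differences, and 2 lower, with Alas1, which starts haem synthesis, at 1.13 against 3.23 and 0.783 against 1.41. Of 10 Ppara targets 6 were higher, Pdk4 most by the smaller of its 2 differences, at 1.66 against 0.140 and 1.44 against 0.0659, and 1 was lower, Acsl1. Of 10 phase I enzymes 2 were higher, Ces2c most, and 4 lower, Akr1c21 most, at 1.05 against 4.53 and 0.920 against 3.62. Rdh16 was lower, and Tiparp was higher.

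The lists were also counted between the AAI mice. Of 12 regulators 7 were lower, of 11 phase I enzymes 7, of 8 Ppara targets 3, of 6 redox and haem genes 2, of 3 retinoid genes 1 and of 2 Ahr targets 0 in the hKLF6OE mouse, and 0 of each were higher, against 7.74% of all genes lower and 6.32% higher. Alas1 was 1.41 against 3.23 and Fmo2 2.35 against 5.29. Without AAI, 3 of 13 regulators were lower and 1 was higher in the hKLF6OE mouse. Of 10 phase I enzymes 3, of 8 redox and haem genes 1 and of 7 Ppara targets 1 were lower, and 2, 1 and 0 were higher, against 9.33% and 7.84% of all genes. In InjuredPT-B, 5 of 12 regulators, 6 of 9 phase I enzymes, 2 of 6 redox and haem genes and 1 of 9 Ppara targets were lower and 3, 2, 1 and 3 higher, against 13.1% and 23.4% of all genes. In PT-S3, 2 of 12 regulators, 3 of 10 phase I enzymes, 0 of 7 redox and haem genes and 1 of 7 Ppara targets were lower and 5, 5, 2 and 4 higher, against 14.7% and 12.9%.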

How the data were processed

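Single-nucleus RNA-seq libraries of kidney cortex from 4 mice, 1 per group, were prepared by the authors in 1 technical batch. The labels name Cell Ranger, Seurat and mm10, and the study's methods name a pre-mRNA reference, so intronic reads were counted. Nuclei were filtered on genes detected and on the mitochondrial share, and no step to remove doublets or ambient RNA was stated. The deposited table gives a signal: the mean over the nuclei of 1 cluster and 1 mouse of counts scaled by the authors to a sum of 10000. It holds 19632 rows and 92 columns. Rows turned into dates by a spreadsheet (23) were left out. Cluster names follow the order of the authors' marker sheets and were checked against marker genes. The table gives neither nuclei per cluster nor counts, so depth is unknown and no interval can be set. No row for human KLF6 was found, so transgene induction was not checked.

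Differences were taken as log2(level + 1), a scale that understates changes of low genes, among genes with a level of at least 0.5 on a side. They were counted from 0.2, in both mice where a comparison had 2. The calculation was tested on simulated data. No test was run. Normal PT is the unweighted mean of 3 PT-S3 and 2 PT-S1-S2 clusters. Members reaching 0.5 in a normal PT mean, or in 3 of 4 mice of a cluster, were described with all 4 values. In each comparison the 5 largest rises and falls counted were named, and of each other list the largest rise and fall, except that some regulators are not reported here. Members, gene lists and rules were chosen with earlier results of these data known. Alternatives were a pseudocount of 0.1, no filter or a minimum of 2, a threshold of 0.5, centring, other PT references and each genotype alone. Gene positions and transcripts came from GENCODE (GRCm38). Python 3.11.15, pandas 2.3.3 and numpy 2.4.6 were used.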

Additional observations from a re-analysis of the deposited data

Results flagged for a closer look

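With AAI, Cyp4b1 and Cyp2a4 moved in opposite directions in the control and hKLF6OE genotypes in 1 and 2 PT clusters. Cyp4b1 differed by 0.3497 in log2(level + 1) in the control and by -0.5011 in the hKLF6OE genotype in PT-S1-S2-1. Cyp2a4 differed by 0.2963 and -0.3538 in PT-S3-1 and by 0.2610 and -0.3586 in PT-S1-S2-1, in the same order. Each is 1 mouse against 1 mouse, and the difference between genotypes was not tested.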

How the results depend on the processing

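No paired analysis was possible because each group held 1 mouse and no test was made. Of the values for single genes under the alternatives, 211 kept their direction and side of the limit, 26 kept their direction but no longer passed, and none reversed. Much of this was fixed in advance. Each genotype alone, no filter, a minimum of 2 and a pseudocount of 0.1 could not weaken a gene already called and still tested. Among settings that could, a threshold of 0.5 kept 17 and lost 20, and centring kept 33 and lost 4. Leaving out PT-S3-2 kept 2 and lost 2. A pseudocount of 0.1 gave 2 higher members in InjuredPT-B in place of 1, 5 higher in place of 2 and 5 lower in place of 3 for hKLF6OE without AAI, and 2 higher in place of 0 with AAI. A minimum of 2 left 2 higher in InjuredPT-A and 0 in InjuredPT-B, 1 lower with AAI, 1 lower for hKLF6OE without and 2 with AAI, and 2 higher in PT-S3. No filter gave 2 lower in PT-S3. A threshold of 0.5 left 1 higher in InjuredPT-A and 0 in InjuredPT-B, 1 lower with AAI, 0 higher and 1 lower for hKLF6OE without AAI, 3 lower with AAI, and 2 higher in PT-S3. Centring left 3 higher in InjuredPT-A and 0 in InjuredPT-B. Asking for 4 of 5 clusters left 1 higher and 1 lower with AAI, and 0 and 3 lower for hKLF6OE without and with AAI. The control genotype alone gave 4 higher in InjuredPT-B, 7 higher with AAI and 2 lower in PT-S3, and the hKLF6OE genotype alone 8 lower in InjuredPT-B and 1 lower in PT-S3. The smaller counts under the stricter limits follow from fewer genes tested or passing, and the cause of the others was not tested.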
